A study of Mus musculus with 12 samples.

Results

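NP-D@MP, the complete nanodrug of the series, was compared with NP@M, the coated carrier without D, in CT26 cells, a mouse colon carcinoma line. The comparison used 6 of 12 RNA sequencing libraries, the 3 NP-D@MP libraries N10, N11 and N12 and the 3 NP@M libraries N4, N5 and N6, and all 12584 genes of the deposited table were its members. Cells of every group, including the 3 PBS libraries and the 3 NP-D@M libraries set beside them here, had been exposed for 24 h. The labels do not spell out N, P, D or M, and the title of the series speaks of a nanodrug that is wrapped in engineered cancer cell membrane, is directed at cyclin-dependent kinases (CDKs) and is used with PD-L1 antibody. The names of the 2 groups differ in both D and P, so effects of D and of P cannot be told apart within this comparison. A single cell line was used. Whether the 3 libraries of a group stem from different cultures is not in the labels, and p-values then cover only the spread between libraries, which may be technical.

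CDKs are kinases that need a cyclin partner. One set drives the cell cycle, with Cdk4 and Cdk6 acting at entry, Cdk2 in S phase and Cdk1 in mitosis. Another set, with Cdk7, Cdk9 and Cdk12, phosphorylates RNA polymerase II and lets it start and elongate transcripts. When transcription is held back, messages with a short life fall first and stable messages take a larger share of what is left, which is textbook background and not a result of these data.

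Expression is given in FPKM, the reads of a gene divided by its length and by a library size. The library size behind the deposited values was 29.6 to 31.1 M reads in the NP@M libraries and 7.13 to 7.58 M in the NP-D@MP libraries, whereas the reads in the table summed to 15.1 to 15.5 M and 13.4 to 14.2 M. Directions were therefore read on 3 scales: the deposited FPKM, values scaled to those summed reads, and quantile normalization, which gives every library the same distribution of values. Over the 9303 genes with reads in all libraries, the median ratio of a library to the common level was 0.982 to 1.055 on the deposited scale. Scaling to the reads moved the median log2 change of all genes by -1.32, and quantile normalization moved it by -0.0098. The 1 FPKM added before taking logs damps the first shift in low genes, and high genes moved further. Cdk4, for example, went from a log2 change of 3.07 on the deposited scale to 1.18 scaled to the reads. Each scale is relative within a library, so fewer cells of a kind and less RNA per cell cannot be told apart. Across genes, libraries correlated at r = 0.987 to 0.988 within NP@M, 0.990 to 0.991 within NP-D@MP and 0.708 to 0.733 between them. Library N9, labelled NP-D@M, was nearer to the NP-D@MP libraries than to its group. Its r was 0.978 with N7 and with N8 but 0.991 to 0.992 with the 3 NP-D@MP libraries. N7 and N8 correlated with each other at 0.976, so they were no nearer to each other than to N9. Reads were found for 11546 genes in N9, 10385 in N7, 10410 in N8 and 11373 to 11480 in the NP-D@MP libraries. N7 and N8 had the fewest such genes of all 12 libraries. Results that rest on NP-D@M are therefore given with and without N9.

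Of the 10101 genes tested, 4393 (43.5%) were higher with NP-D@MP and 4776 (47.3%) were lower on the deposited scale (limma, Benjamini-Hochberg adjusted p under 0.05), or 90.8% in all. The values of the 2 groups did not overlap for 92.4% of the genes, and 60.2% were called with an absolute log2 change of at least 1. Scaled to the reads, 1871 (18.5%) were higher and 7066 (70.0%) lower, or 88.5% in all. After quantile normalization 3837 (38.0%) were higher and 4385 (43.4%) lower, or 81.4% in all. On all 3 scales 1706 genes (16.9%) were higher and 3727 (36.9%) were lower, while 1476 (14.6%) were higher on the deposited scale and lower when scaled to the reads. With calls this common, a count of called members within a gene group says little by itself, and counts within the groups below are to be read against these shares. The median log2 change of all tested genes was -0.13 on the deposited scale, -1.46 scaled to the reads and -0.14 after quantile normalization. Where a group's median is given as 3 values, they are in this order. A pseudocount of 1 FPKM enters each log2 change and makes changes of low genes look smaller, and folds are ratios of mean FPKM over 3 libraries against 3.

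**Figure D1:**
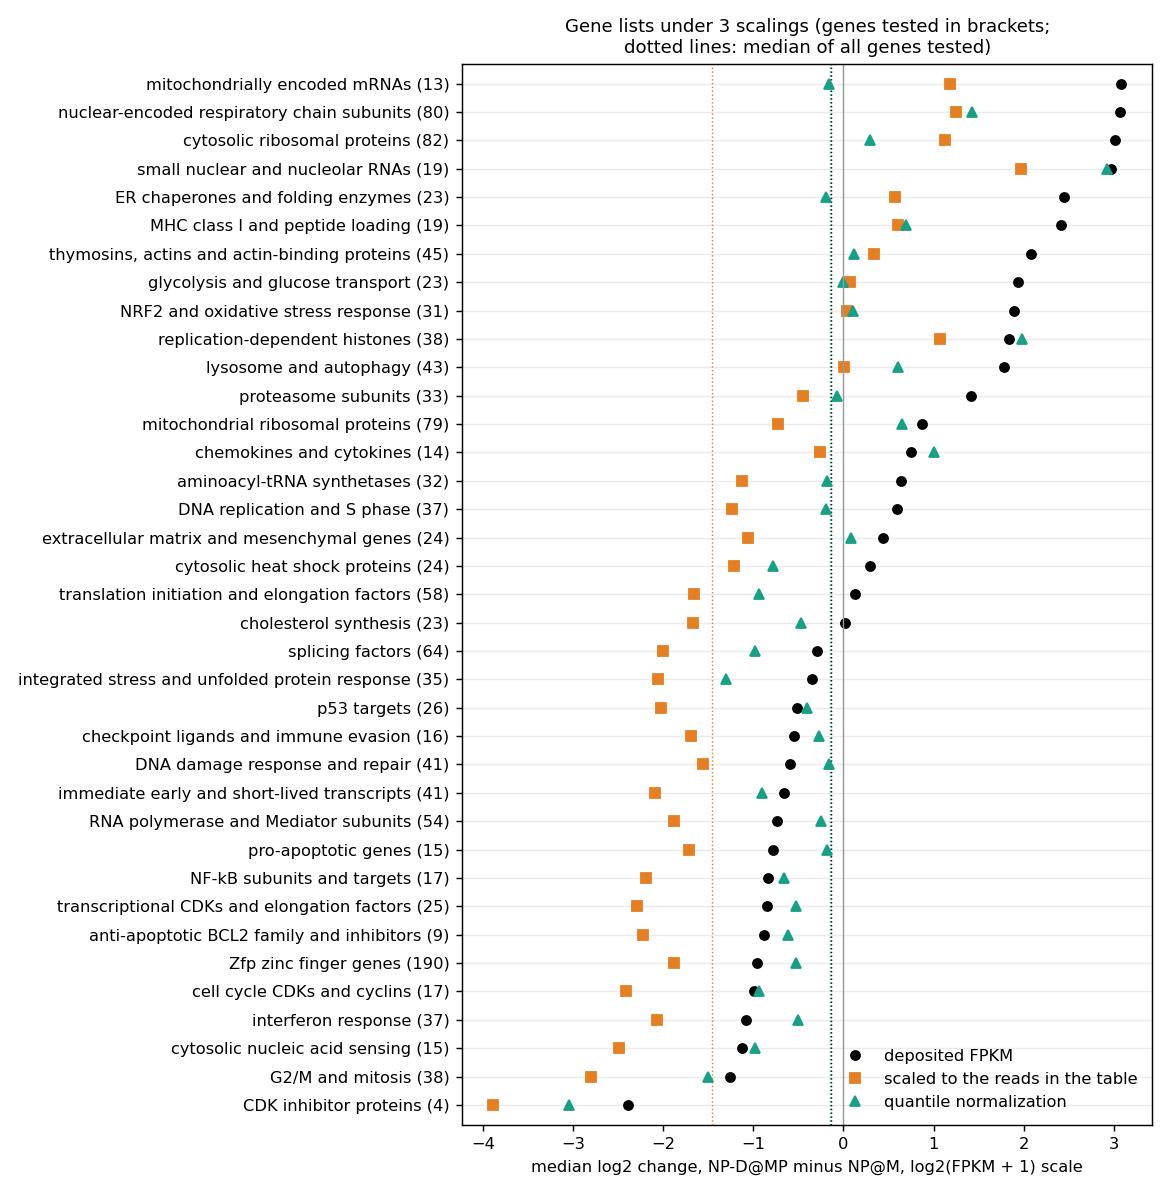
Median log2 change of each of 37 gene lists (NP-D@MP minus NP@M, log2(FPKM + 1) scale) on the deposited scale, scaled to the reads and after quantile normalization; dotted lines mark the median of all tested genes on each scale. Mitochondrially encoded mRNAs stand at 3.08 on the deposited scale and at -0.17 after quantile normalization, while CDK inhibitor proteins stand below the median of all genes on each scale.

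Among genes of 500 bases or more that are no predicted loci and average 5 FPKM or more in the higher group, the largest rises that were also called scaled to the reads included subunits of the mitochondrial respiratory chain and parts of the spliceosome and the mitochondrial import pore. Uqcr11, a subunit of respiratory complex III (chromosome 10, 80402997 to 80406830, GRCm38), stood at 11.04, 6.53 and 8.94 FPKM with NP@M and 673, 698 and 568 FPKM with NP-D@MP. The groups lay far apart, with a 73.2-fold higher mean (log2 change 6.06, SE 0.38, adjusted p = 2.67e-08), or 19.6-fold scaled to the reads. Ppp1r14b, an inhibitor of protein phosphatase 1, stood at 69.8, 66.4 and 62.7 FPKM with NP@M and 3411, 3269 and 3168 FPKM with NP-D@MP, 49.5-fold higher (log2 change 5.61, SE 0.18, adjusted p = 1.16e-10). Cox8a, a subunit of cytochrome c oxidase, stood at 69.8, 57.2 and 68.3 FPKM with NP@M and 2628, 2693 and 2492 FPKM with NP-D@MP, 40.02-fold higher (log2 change 5.31, SE 0.25, adjusted p = 2.25e-09). All 6 values of each of these genes sorted by treatment. S100a4, a calcium-binding protein named for its link to metastasis, rose from 26.4, 16.1 and 22.3 FPKM to 742, 796 and 779 FPKM, though 47.4% of its 50-base stretches also occur in transcripts of other genes, so reads could be shared. Gchfr, which regulates GTP cyclohydrolase, rose from 5.05, 6.12 and 8.18 FPKM to 263, 259 and 243 FPKM.

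Tomm7, of the mitochondrial import pore, was 60.9-fold higher, Snrpf, an Sm protein of the spliceosome, 51.5-fold, Cops9, of the COP9 signalosome, 49.5-fold and Metrn, a secreted factor known from nerve cells, 80.8-fold (log2 changes 5.58, 5.37, 5.29 and 5.20). Of these, Metrn was the lowest, at 0.773, 0.824 and 0.898 FPKM with NP@M against 73.9, 76.8 and 51.04 FPKM with NP-D@MP. Metrn stayed under 1 FPKM in each NP@M library, so it passed the filter through other groups, which favours a rise. mt-Co3, encoded in the mitochondrial genome, stood at 21.2, 24.5 and 23.2 FPKM with NP@M and 495, 387 and 2879.8 FPKM with NP-D@MP (log2 change 5.10, SE 0.55, adjusted p = 3.32e-06). Library N12 set its level, since the NP-D@MP mean was 1254 FPKM with it and 441 FPKM without it, and 99.9% of its stretches occur in other transcripts too. All 10 rises were also called scaled to the reads, as the rule for naming them required, with log2 changes between 3.23 (mt-Co3) and 4.24 (Uqcr11), and after quantile normalization they lay between 2.47 (Cox8a) and 4.66 (Tomm7).

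By the same rule, the largest falls included messages of stress signalling, nuclear import and transcription. Trib3, a pseudokinase that is switched on by the stress factor ATF4 (chromosome 2, 152337422 to 152344032, GRCm38), stood at 60.04, 48.9 and 50.98 FPKM with NP@M and 0.629, 0.931 and 0.594 FPKM with NP-D@MP, from 3914, 3080 and 3366 reads and 10, 15 and 9 reads. The groups did not overlap, and the mean was 74.3-fold lower (log2 change -4.98, SE 0.15, adjusted p = 8.28e-11), or 277-fold scaled to the reads. Kpna2, the importin that carries proteins into the nucleus, stood at 45.03, 43.9 and 43.2 FPKM with NP@M and 0.931, 0.275 and 1.07 FPKM with NP-D@MP, 57.97-fold lower (log2 change -4.71, SE 0.16, adjusted p = 1.48e-10). A share of 62.6% of its 50-base stretches occurs in other transcripts, so its level is uncertain. Herpud1, a part of the machinery that removes misfolded proteins from the endoplasmic reticulum (ER), stood at 44.1, 43.2 and 43.8 FPKM with NP@M and 2.58, 1.81 and 1.44 FPKM with NP-D@MP, 22.5-fold lower. Nfe2l2, which encodes the oxidative stress factor NRF2, stood at 36.03, 38.5 and 36.2 FPKM with NP@M and 2.15, 1.67 and 1.81 FPKM with NP-D@MP, 19.7-fold lower. Fosb, an immediate early transcription factor, stood at 28.8, 24.3 and 22.1 FPKM with NP@M and 0.857, 1.08 and 1.15 FPKM with NP-D@MP, 24.4-fold lower. In none of these 5 genes did any NP-D@MP library reach the lowest NP@M library.

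Myadm, a membrane protein, was 28.2-fold lower, Steap1, a membrane protein of the metalloreductase family, 19.8-fold, Mat2a, which makes the methyl donor S-adenosylmethionine, 17.7-fold and Calm2, a calmodulin, 13.5-fold (log2 changes -4.29, -4.10, -3.72 and -3.68). Pnrc2, which takes part in mRNA decay, stood at 27.8, 30.8 and 26.2 FPKM with NP@M and at 0, 1.19 and 1.14 FPKM with NP-D@MP. N10 held no read of Pnrc2. The 10 falls were steeper on the other scales, with log2 changes from -4.995 (Fosb) to -6.23 (Trib3) scaled to the reads and from -4.26 (Fosb) to -5.87 (Trib3) after quantile normalization. With PBS these genes stood near their NP@M level, for example Trib3 at 68.97 FPKM and Fosb at 31.9 FPKM.

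**Figure D2:**
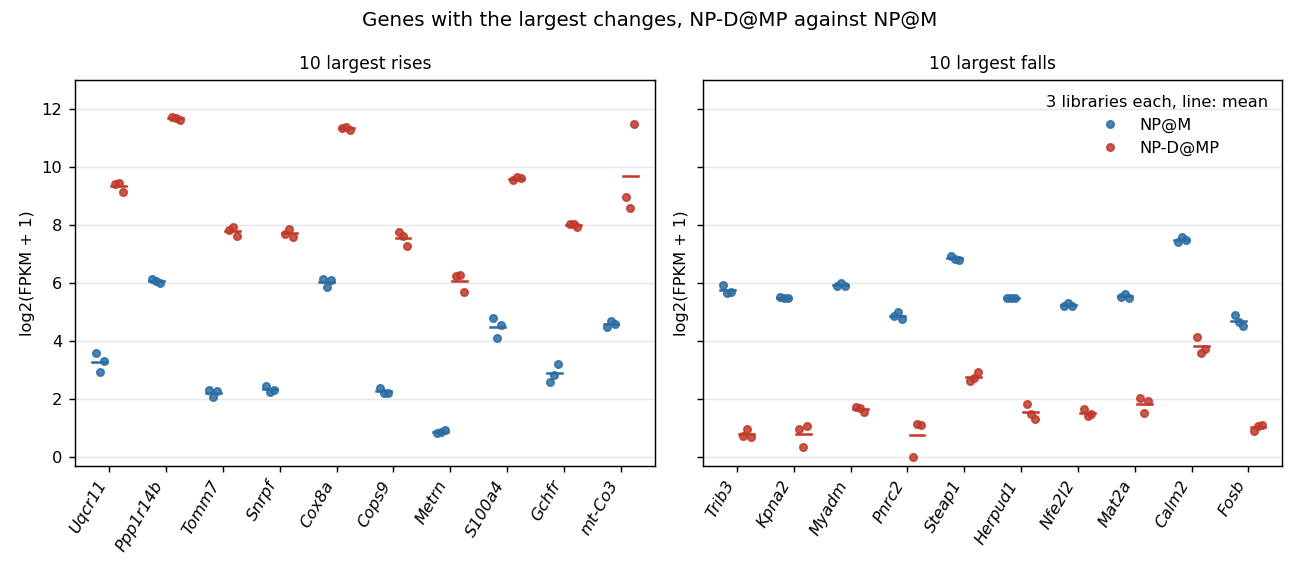
Expression (log2(FPKM + 1), deposited scale) of the 10 largest rises and 10 largest falls among genes of at least 500 bases, without predicted loci such as Gm26917 and genes averaging under 5 FPKM in the higher group; each point is 1 library, 3 per group, and lines mark the means. The groups lie apart for each gene, and for mt-Co3 library N12 stands above N10 and N11.

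Most kinases and cyclins of the cell cycle fell. Of 17 tested, 4 rose and 12 fell on the deposited scale, while 1 rose and 15 fell scaled to the reads, and 2 rose and 12 fell after quantile normalization. Their median log2 change was -0.997 on the deposited scale, -2.42 scaled to the reads and -0.94 after quantile normalization. The mitotic kinase Cdk1 (chromosome 10, 69335146 to 69352938) stood at 18.5, 17.3 and 16.02 FPKM with NP@M and 1.11, 1.02 and 1.56 FPKM with NP-D@MP, without overlap, and fell 14.1-fold (log2 change -3.04, SE 0.14, adjusted p = 1.72e-09). Its partners fell with it: cyclin A2 (Ccna2) stood at 26.1, 26.6 and 24.99 FPKM with NP@M and 2.06, 2.58 and 1.75 FPKM with NP-D@MP, 12.1-fold lower (log2 change -3.11, SE 0.12, adjusted p = 5.55e-10). Cyclin B1 (Ccnb1) stood at 30.8, 30.1 and 30.3 FPKM with NP@M and 2.22, 2.56 and 1.43 FPKM with NP-D@MP, 14.7-fold lower (log2 change -3.37, SE 0.20, adjusted p = 1.75e-08). Scaled to the reads, the 3 log2 changes were -4.39, -4.60 and -4.85. Cdk2, the S phase kinase, stood at 4.92, 4.26 and 4.51 FPKM with NP@M and 1.63, 0.975 and 0.789 FPKM with NP-D@MP, 4.03-fold lower (log2 change -1.40). Cdk6, which acts at entry into the cycle, showed a smaller fall, from 5.48, 5.57 and 5.66 FPKM to 2.87, 3.196 and 2.58 FPKM (log2 change -0.76, -2.24 scaled to the reads and -0.49 after quantile normalization).

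Cdk4, the close relative of Cdk6, went the other way and was the cell cycle kinase that rose on all 3 scales. It stood at 84.9, 72.9 and 74.02 FPKM with NP@M and 674, 635 and 653 FPKM with NP-D@MP, 8.46-fold higher (log2 change 3.07, SE 0.10, adjusted p = 1.81e-10). The rise was smaller on the other scales, with log2 changes of 1.18 scaled to the reads and 0.38 after quantile normalization. The cyclins Ccnd1 and Ccnb2 rose on the deposited scale only. Ccnd1, the cyclin D1 partner of Cdk4, stood at 90.8, 87.5 and 84.96 FPKM with NP@M and 259.6, 274 and 252 FPKM with NP-D@MP (log2 change 1.57), but its change was -0.32 scaled to the reads and -0.92 after quantile normalization, both called as falls. Ccnb2, cyclin B2, stood at 27.8, 26.9 and 28.3 FPKM with NP@M and 99.5, 105 and 105 FPKM with NP-D@MP (log2 change 1.86), and on the other scales its change of -0.0043 scaled to the reads and -0.036 after quantile normalization was not called. Cdk5, a CDK best known from neurons, stood at 7.83, 6.17 and 7.27 FPKM with NP@M and 78.5, 84.6 and 86.3 FPKM with NP-D@MP. The rise of 11.7-fold (log2 change 3.38, SE 0.13, adjusted p = 3.86e-10) remained at 1.59 scaled to the reads and 2.42 after quantile normalization on the log2 scale.

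**Figure D3:**
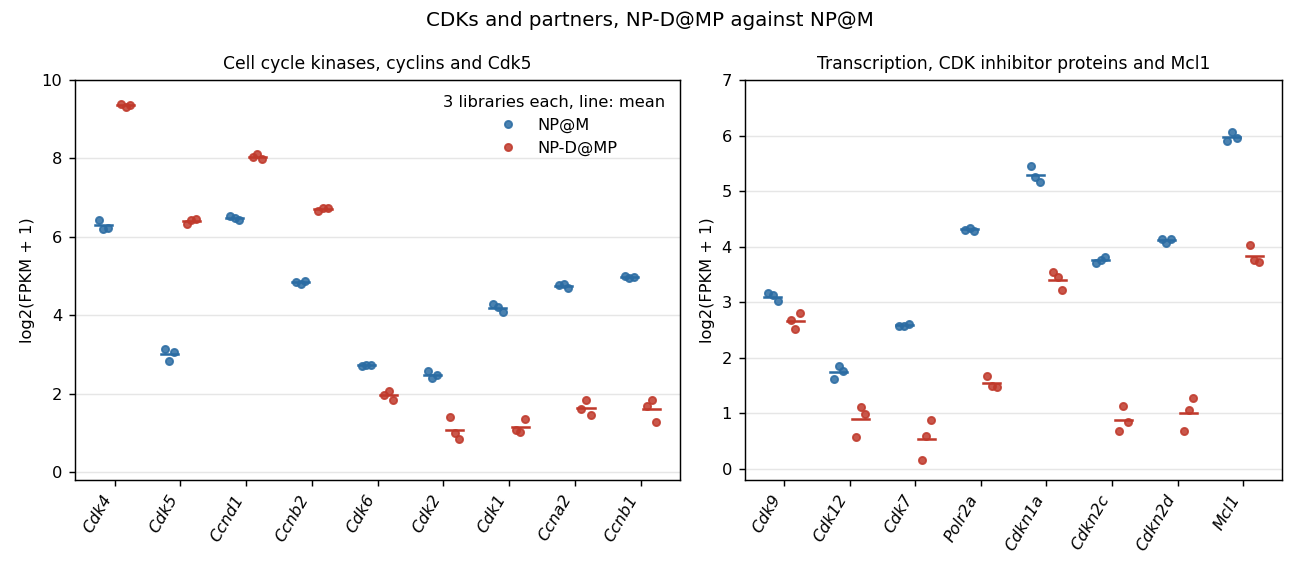
Expression (log2(FPKM + 1), deposited scale) of CDKs, cyclins, Polr2a, CDK inhibitor proteins and Mcl1; each point is 1 of 3 libraries per group, lines mark means. Cdk4 and Cdk5 lie higher with NP-D@MP on all 3 scales, Ccnd1 and Ccnb2 on the deposited scale only, and the other genes lie lower.

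Genes of late cell cycle and mitosis fell broadly. Of 38 tested, 8 rose and 29 fell, while 0 rose and 36 fell scaled to the reads, and 1 rose and 34 fell after quantile normalization, beside 47.3% of all genes lower on the deposited scale. Their median log2 change was -1.26 on the deposited scale, -2.80 scaled to the reads and -1.51 after quantile normalization. Top2a, the topoisomerase that untangles chromosomes, stood at 36.7, 40.6 and 36.7 FPKM with NP@M and 2.33, 2.53 and 2.05 FPKM with NP-D@MP, 16.5-fold lower (log2 change -3.56, SE 0.14, adjusted p = 4.20e-10). Aurka, a kinase of the mitotic spindle, stood at 23.97, 20.6 and 22.9 FPKM with NP@M and 1.06, 1.09 and 0.665 FPKM with NP-D@MP, 23.98-fold lower. Cdc20, which activates the anaphase-promoting complex, stood at 57.9, 53.1 and 57.7 FPKM with NP@M and 10.5, 8.4005 and 8.93 FPKM with NP-D@MP, 6.05-fold lower. Foxm1, a transcription factor for mitotic genes, was higher on the deposited scale (log2 change 1.75) but not called at -0.11 scaled to the reads and -0.10 after quantile normalization. Genes of DNA replication were mixed: of 37 tested, 23 rose and 12 fell on the deposited scale, while 5 rose and 29 fell scaled to the reads, and 12 rose and 17 fell after quantile normalization (median log2 change 0.59, -1.23 and -0.19). Dut, which keeps uracil out of DNA, rose from 29.2, 29.6 and 27.7 FPKM to 213, 196 and 193 FPKM and on all 3 scales. Cdc6, which licenses replication origins, fell from 2.599, 3.03 and 2.87 FPKM to 0.0511, 0.177 and 0.0268 FPKM, from 2, 7 and 1 reads with NP-D@MP, and its NP-D@MP mean was 0.0848 FPKM with N11 and 0.0390 FPKM without it.

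Promoters of many mitotic genes carry the cell cycle homology region, the letters TTTGAA, through which such genes are known to be held silent outside G2 and mitosis. These letters, on either strand, were looked for in RefSeq promoters (GRCm38.p6, 250 bases before to 50 bases after the start) of 7283 tested genes. They were found in 14.1% of all these promoters and in 23 of 32 (71.9%) of the mitotic genes, of which 2 were higher and 21 lower on the deposited scale, beside 380 higher and 528 lower of all 1024 genes with the letters. Cdk1 and Ccnb2, counted with the cell cycle kinases and cyclins rather than with the mitotic genes, carry them too. The windows show the letters in capitals, read along the gene strand, for Top2a (chr11:99024190-99024232, minus strand), Cdc20 (chr4:118437344-118437381, minus strand), Cdk1 (chr10:69352913-69352947, minus strand) and Ccnb2 (chr9:70421696-70421741, minus strand), since the first 3 genes fell and Ccnb2 rose on the deposited scale. Top2a carries them on the opposite strand, where they read TTCAAA.
Top2a: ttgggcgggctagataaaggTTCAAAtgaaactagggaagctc
Cdc20: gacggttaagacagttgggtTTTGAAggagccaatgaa
Cdk1: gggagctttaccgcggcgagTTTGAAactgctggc
Ccnb2: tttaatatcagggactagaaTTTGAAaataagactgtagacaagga
The last base of the match lies 18 bases before the start in Top2a, 13 in Cdc20, 10 in Cdk1 and 162 in Ccnb2. A match of letters is a description and not a tested site.

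The CDKs of transcription and their partners were mostly lower. Of 25 tested, 6 rose and 18 fell, while 1 rose and 24 fell scaled to the reads, and 2 rose and 14 fell after quantile normalization (median log2 change -0.85, -2.30 and -0.53). Polr2a, the largest subunit of RNA polymerase II and the substrate of these kinases, stood at 18.7, 19.3 and 18.5 FPKM with NP@M and 2.19, 1.81 and 1.77 FPKM with NP-D@MP, 9.79-fold lower (log2 change -2.76, SE 0.10, adjusted p = 2.35e-10). Cdk7, the kinase of transcription start, stood at 4.96, 4.901 and 5.09 FPKM with NP@M and 0.108, 0.498 and 0.832 FPKM with NP-D@MP, from 3, 14 and 22 reads with NP-D@MP. It was 10.4-fold lower (log2 change -2.05, SE 0.15, adjusted p = 1.34e-07), and its NP-D@MP mean was 0.480 FPKM with N12 and 0.303 FPKM without it. Cdk9, the kinase of elongation, went from 7.92, 7.702 and 7.11 FPKM to 5.37, 4.75 and 5.96 FPKM. Its fall was small on the deposited scale (log2 change -0.44) and after quantile normalization (-0.53) but larger scaled to the reads (-2.05). Cdk12, which acts late in long genes, stood at 2.06, 2.61 and 2.38 FPKM with NP@M and 0.4902, 1.15 and 0.9802 FPKM with NP-D@MP (log2 change -0.85), and its change of -0.27 after quantile normalization was not called. Subunits of the RNA polymerases and of Mediator, 54 in all, were split between 23 that rose and 27 that fell, with 6 and 40 scaled to the reads (median log2 change -0.74, -1.88 and -0.25).

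The natural protein inhibitors of CDKs fell without exception on each scale: all 4 tested did, with a median log2 change of -2.39 on the deposited scale, -3.89 scaled to the reads and -3.05 after quantile normalization. Cdkn1a, which encodes p21 and is a target of p53, stood at 42.96, 37.3 and 34.9 FPKM with NP@M and 10.6, 9.91 and 8.29 FPKM with NP-D@MP, 3.996-fold lower (log2 change -1.89, SE 0.11, adjusted p = 1.76e-08). Cdkn2c, which encodes p18 and blocks Cdk4 and Cdk6, stood at 12.1, 12.6 and 13.002 FPKM with NP@M and 0.597, 1.18 and 0.783 FPKM with NP-D@MP, 14.7-fold lower. Cdkn2d, which encodes p19 of the same family, stood at 16.5, 15.7 and 16.5 FPKM with NP@M and 0.595, 1.09 and 1.43 FPKM with NP-D@MP, 15.7-fold lower.

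Messages known for short lives were lower in the majority but not as a rule. Of 41 tested, 14 rose and 24 fell, while 3 rose and 32 fell scaled to the reads, and 7 rose and 25 fell after quantile normalization (median log2 change -0.66, -2.09 and -0.90). Junb, a partner of the AP-1 transcription factor, stood at 46.9, 37.8 and 32.7 FPKM with NP@M and 622, 548 and 557 FPKM with NP-D@MP, 14.7-fold higher (log2 change 3.86, SE 0.22, adjusted p = 1.21e-08). Jun, the core AP-1 protein, stood at 16.8, 14.6 and 10.5 FPKM with NP@M and 182, 135 and 156 FPKM with NP-D@MP, 11.3-fold higher. Both rose on all 3 scales, with log2 changes of 1.98 scaled to the reads and 1.47 after quantile normalization for Junb and 1.58 scaled to the reads and 1.85 after quantile normalization for Jun. Fosb, which pairs with JUN proteins in AP-1, was among the falls named above. Dusp4, a phosphatase that ends MAP kinase signals, stood at 27.005, 24.2 and 23.6 FPKM with NP@M and 8.25, 6.21 and 6.704 FPKM with NP-D@MP, and Gadd45a, a growth arrest gene, at 29.9, 29.2 and 24.6 FPKM with NP@M and 4.397, 2.17 and 1.91 FPKM with NP-D@MP, 3.54-fold and 9.87-fold lower. Myc, the growth regulator, fell from 28.4, 28.6 and 26.2 FPKM to 21.7, 14.997 and 17.9 FPKM, a log2 change of -0.60 (-2.40 scaled to the reads and -1.89 after quantile normalization).

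Most survival genes were lower, and p53 targets were divided. Mcl1, a short-lived survival protein of the BCL2 family, stood at 58.9, 66.2 and 61.4 FPKM with NP@M and 15.4, 12.6 and 12.1 FPKM with NP-D@MP, 4.65-fold lower (log2 change -2.14, SE 0.18, adjusted p = 3.83e-07). Bcl2l1, which encodes BCL-XL, fell 2.21-fold, from 28.9, 26.02 and 25.8 FPKM to 13.4, 12.1 and 11.1 FPKM. Bcl2l2, which encodes BCL-W, was higher on the deposited scale (log2 change 1.25) and after quantile normalization (1.32) but lower scaled to the reads (-0.38). Among the 9 tested genes that block cell death, 2 were higher and 7 lower, or 0 and 9 scaled to the reads (median log2 change -0.89, -2.23 and -0.62). Among the 15 tested genes that promote it, 6 were higher and 8 lower, or 3 and 11 scaled to the reads (median log2 change -0.78, -1.71 and -0.18). Bax, which opens the mitochondrial membrane in cell death, rose from 42.5, 37.7 and 40.8 FPKM to 236, 194 and 209 FPKM (log2 change 2.37, 0.49 scaled to the reads), and its 0.17 after quantile normalization was not called. Of 26 p53 targets 8 rose and 16 fell on the deposited scale, 2 and 23 scaled to the reads and 6 and 13 after quantile normalization (median log2 change -0.51, -2.03 and -0.40), beside 47.3%, 70.0% and 43.4% of all genes lower. Mdm2, the ligase that degrades p53, went from 21.4, 24.2 and 22.95 FPKM to 15.6, 16.7 and 16.4 FPKM. Its fall was slight on the deposited scale (log2 change -0.47) and larger on the others (-2.26 scaled to the reads and -1.63 after quantile normalization). Sesn2, a stress sensor, fell 18.05-fold, from 15.8, 14.3 and 16.2 FPKM to 0.654, 1.02 and 0.888 FPKM.

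Most ER chaperones rose on the deposited scale, while Hspa5 and several stress factors fell on each scale. The unfolded protein response normally raises both, through the factors ATF4, XBP1 and ATF6. Of 23 chaperones and folding enzymes, 20 rose and 3 fell on the deposited scale, while 13 rose and 9 fell scaled to the reads, and 9 rose and 11 fell after quantile normalization (median log2 change 2.44, 0.58 and -0.20), so that their direction as a group depended on the scale. Calr, calreticulin, which folds glycoproteins and marks dying cells when it reaches the cell surface, stood at 112, 109.6 and 107 FPKM with NP@M and 1336, 1387 and 1436 FPKM with NP-D@MP. Its mean was 12.7-fold higher (log2 change 3.65, SE 0.081, adjusted p = 2.83e-11), and its log2 change was 1.76 scaled to the reads and 0.73 after quantile normalization. Pdia6, a disulfide isomerase, stood at 40.6, 36.2 and 37.99 FPKM with NP@M and 335, 341 and 338 FPKM with NP-D@MP, 8.84-fold higher, and rose on all 3 scales. P4hb, another disulfide isomerase, rose from 219, 214 and 228 FPKM to 1281, 1335 and 1340.2 FPKM but had a log2 change of -0.49, a called fall, after quantile normalization. Hspa5, which encodes BiP, the master chaperone of the ER and the classic readout of its stress, stood at 195, 211 and 199 FPKM with NP@M and 19.7, 29.2 and 22.7 FPKM with NP-D@MP. It fell 8.46-fold (log2 change -3.05, SE 0.36, adjusted p = 6.58e-06), opposite to Calr, on each scale.

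Calr and Hspa5 share a promoter element, the ER stress response element (CCAAT, then 9 bases of any kind, then CCACG), which these genes are known to use. It was found on either strand in 12 of the 7283 promoters (0.165%) and in 5 of 19 ER chaperone promoters (26.3%), namely those of Calr, Pdia6, Canx, Hsp90b1 and Hspa5. Canx, the membrane-bound relative of calreticulin, and Hsp90b1, the ER form of HSP90, were chosen for their element after values were seen. The windows show it in capitals along the gene strand, for Calr (chr8:84847055-84847113, minus strand), Pdia6 (chr12:17266471-17266529, plus strand), Canx (chr11:50325780-50325838, minus strand), Hsp90b1 (chr10:86705513-86705571, minus strand) and Hspa5 (chr2:34772005-34772063, plus strand). In Calr and Hsp90b1 it lies on the opposite strand.
Calr: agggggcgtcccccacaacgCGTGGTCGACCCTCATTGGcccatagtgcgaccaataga
Pdia6: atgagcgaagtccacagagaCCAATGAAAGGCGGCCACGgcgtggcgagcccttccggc
Canx: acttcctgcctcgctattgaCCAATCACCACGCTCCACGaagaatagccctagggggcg
Hsp90b1: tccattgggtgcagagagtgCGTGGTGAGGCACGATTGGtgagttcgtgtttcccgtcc
Hspa5: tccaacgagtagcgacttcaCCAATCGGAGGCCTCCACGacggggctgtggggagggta
These 5 genes spanned log2 changes of 3.65 (Calr), 3.11 (Pdia6), 1.86 (Canx), 0.66 (Hsp90b1) and -3.05 (Hspa5) on the deposited scale. Scaled to the reads they were 1.76, 1.23, -0.016, -1.22 and -4.89 in the same order, so Hsp90b1 turned to a called fall and Canx was no longer called. After quantile normalization Canx (-0.42) and Hsp90b1 (-1.91) were both lower.

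The genes of stress signalling divided almost evenly on the deposited scale. Their share of falls scaled to the reads is to be read beside the 70.0% of all genes, and after quantile normalization 43.4% of all genes fell. Of 35 genes of the integrated stress and unfolded protein response, 16 rose and 18 fell, while 6 rose and 26 fell scaled to the reads, and 7 rose and 23 fell after quantile normalization (median log2 change -0.35, -2.06 and -1.30). Atf4, the central factor, stood at 206, 185 and 190.3 FPKM with NP@M and 23.7, 29.9 and 27.2 FPKM with NP-D@MP, 7.19-fold lower (log2 change -2.80, SE 0.12, adjusted p = 8.75e-10). Xbp1, the factor made active by splicing on the ER, stood at 23.6, 19.1 and 21.7 FPKM with NP@M and 0.741, 0.731 and 0.863 FPKM with NP-D@MP, 27.6-fold lower. Phgdh, which opens serine synthesis and is an ATF4 target, instead rose from 226, 186 and 212 FPKM to 2087, 1874 and 1962 FPKM (log2 change 3.24, 1.35 scaled to the reads), and its 0.17 after quantile normalization was not called. A share of 47.8% of the 50-base stretches of Phgdh occurs in other transcripts, so its level is uncertain. The C/EBP-ATF element TGATGNAA, to which ATF4 binds with C/EBP partners, was found in 183 promoters (2.51%) and in 7 of 31 of these genes (22.6%): Trib3, Chac1, Herpud1, Vldlr and Slc7a11, which fell, and Asns and Nupr1, which rose on the deposited scale. Slc7a11, the cystine transporter, and Chac1, Asns and Nupr1 were picked for the element after values were seen, and the last 3 are shown for the contrast, with the letters in capitals, for Chac1 (chr2:119351029-119351076, plus strand), Asns (chr6:7693210-7693252, minus strand) and Nupr1 (chr7:126625553-126625600, minus strand), the first and last with the element on the opposite strand.
Chac1: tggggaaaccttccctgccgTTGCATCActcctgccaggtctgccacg
Asns: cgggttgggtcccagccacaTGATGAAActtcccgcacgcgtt
Nupr1: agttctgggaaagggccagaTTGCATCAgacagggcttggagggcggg
Chac1, which breaks down glutathione, stood at 20.2, 14.5 and 13.5 FPKM with NP@M and 1.39, 1.05 and 1.28 FPKM with NP-D@MP, 12.9-fold lower (log2 change -2.91). Asns, asparagine synthetase, stood at 173, 173 and 169.96 FPKM with NP@M and 325, 352 and 351 FPKM with NP-D@MP. Its log2 change of 0.99 turned to -0.90 scaled to the reads and -1.79 after quantile normalization, both called falls. Nupr1, a stress-induced nuclear protein, rose from 10.1, 9.49 and 9.38 FPKM to 32.98, 34.5 and 33.97 FPKM (log2 change 1.71, -0.089 scaled to the reads and 0.85 after quantile normalization), and its value scaled to the reads was not called.

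**Figure D4:**
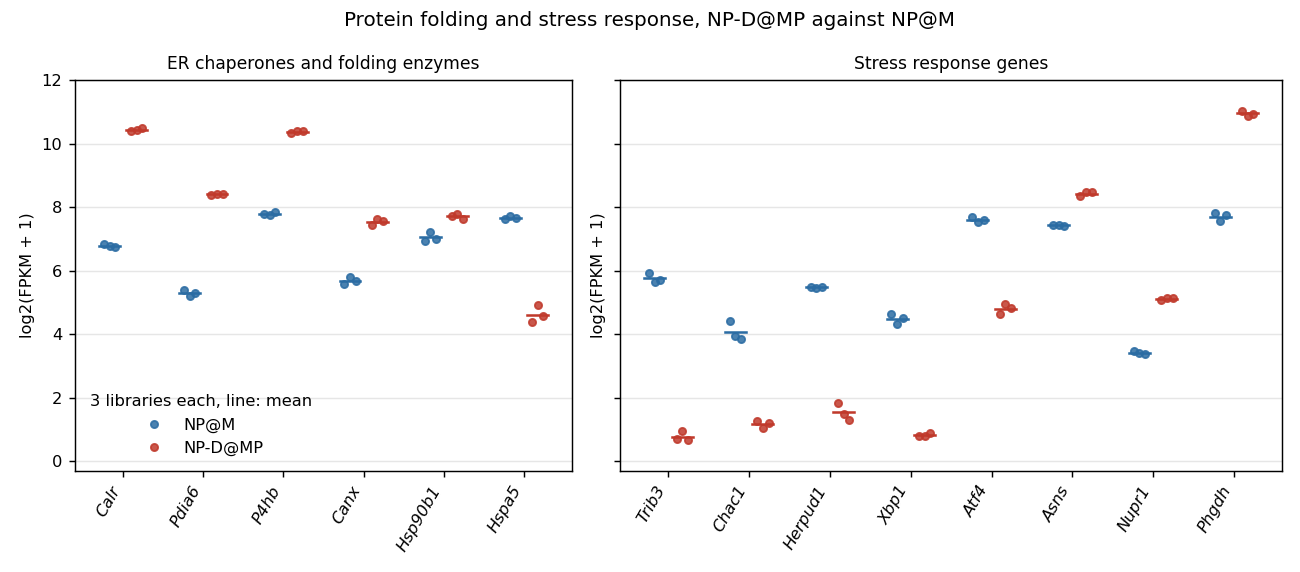
Expression (log2(FPKM + 1), deposited scale) of ER chaperones and of stress response genes; each point is 1 of 3 libraries per group, lines mark means. Calr lies higher with NP-D@MP and Hspa5 lower, and Trib3, Chac1, Herpud1, Xbp1 and Atf4 lie lower while Phgdh lies higher; Asns, Canx and Hsp90b1 lie higher on this scale only, and Nupr1 and P4hb on this scale and 1 of the others.

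Genes by which T cells recognize a cell were mostly higher. Of 19 genes of MHC class I and peptide loading, 16 rose and 2 fell on the deposited scale, while 12 rose and 5 fell scaled to the reads, and 12 rose and 4 fell after quantile normalization, with a median log2 change of 2.42 on the deposited scale, 0.61 scaled to the reads and 0.69 after quantile normalization. H2-K1, a class I heavy chain, stood at 16.5, 13.8 and 16.97 FPKM with NP@M and 209, 128 and 190.5 FPKM with NP-D@MP, 11.2-fold higher (log2 change 3.37, SE 0.24, adjusted p = 8.34e-08). H2-D1, another heavy chain, stood at 130.3, 125 and 128 FPKM with NP@M and 1498, 1396 and 1489.8 FPKM with NP-D@MP, 11.4-fold higher. Both rose on all 3 scales, and 9.63% and 12.8% of their 50-base stretches occur in transcripts of other genes. B2m, the light chain, stood at 623, 718 and 648 FPKM with NP@M and 5096, 5656 and 5428 FPKM with NP-D@MP. Its log2 change of 3.02 (1.12 scaled to the reads) turned to -0.34, a called fall, after quantile normalization. Psme1, an activator of the proteasome, rose 10.4-fold. Tap1, which pumps peptides into the ER, went against the group, from 3.28, 3.403 and 3.71 FPKM to 0.415, 0.265 and 0.154 FPKM (log2 change -1.81, SE 0.12, adjusted p = 4.11e-08), as did Tapbpl, a peptide editor, from 5.17, 4.03 and 3.12 FPKM to 2.62, 1.91 and 3.04 FPKM, whose -0.11 after quantile normalization was not called, nor was its -0.69 with limma voom on the authors' library sizes (adjusted p = 0.0664).

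Cd274, which encodes PD-L1, the ligand that restrains T cells and the target of the antibody in the title, was low in both groups. It stood at 0.891, 1.43 and 0.746 FPKM with NP@M and 0.222, 0.5097 and 0.658 FPKM with NP-D@MP, from 99, 153 and 84 reads and 6, 14 and 17 reads. The values did not overlap by a small gap, with log2 change -0.46, SE 0.16, adjusted p = 0.0161, and the log2 change was -1.23 scaled to the reads and 0.058 after quantile normalization, the latter not called. Without N5 the log2 change was -0.32 (adjusted p = 0.0772), and without N10 it was -0.34 (adjusted p = 0.0727). The call was also lost with a pseudocount of 0.1 (-1.04, adjusted p = 0.0926) and with limma voom on the authors' library sizes (-1.16, adjusted p = 0.0756). Other checkpoint ligands differed: of 16 genes of immune evasion, 6 rose and 10 fell, while 3 rose and 11 fell scaled to the reads, and 3 rose and 7 fell after quantile normalization (median log2 change -0.55, -1.69 and -0.27). Pvr, a ligand of TIGIT, stood at 18.4, 18.7 and 17.2 FPKM with NP@M and 3.01, 3.102 and 3.21 FPKM with NP-D@MP, 5.82-fold lower. Nectin2, its relative, stood at 5.93, 5.81 and 6.45 FPKM with NP@M and 0.0383, 0 and 0.401 FPKM with NP-D@MP, and Cd276, which encodes B7-H3, at 1.497, 1.63 and 1.58 FPKM with NP@M and 0.0366, 0 and 0.192 FPKM with NP-D@MP. Their NP-D@MP levels rested on N12, with a mean of 0.146 FPKM with it and 0.0191 FPKM without it for Nectin2, and of 0.0761 and 0.0183 FPKM for Cd276. Lgals1, galectin 1, which dampens T cells, stood at 1915, 1544 and 1495 FPKM with NP@M and 25705, 25181 and 25212 FPKM with NP-D@MP, 15.4-fold higher, and Tgfb1, the suppressive cytokine, rose 7.74-fold, both on all 3 scales. Hmgb1, a nuclear protein that alerts immune cells when released, fell from 12.5, 14.1 and 13.98 FPKM to 5.03, 5.01 and 5.08 FPKM (log2 change -1.26).

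More genes for chemokines or cytokines rose than fell on the deposited scale, while most genes of the interferon response and of nucleic acid sensing fell. Of 14 tested genes for chemokines or cytokines, 9 were higher and 4 lower on that scale, while 5 rose and 6 fell scaled to the reads, and 9 rose and 3 fell after quantile normalization (median log2 change 0.75, -0.27 and 1.01). Cxcl10, which draws T cells, stood at 0.188, 0.135 and 0.2001 FPKM with NP@M and 2.38, 3.28 and 3.798 FPKM with NP-D@MP, from 13, 9 and 14 reads and 40, 56 and 61 reads, 18.1-fold higher (log2 change 1.81, SE 0.12, adjusted p = 5.89e-08). Ccl5, another T cell attractant, stood at 0, 0.105 and 0.268 FPKM with NP@M and 1.81, 1.37 and 1.17 FPKM with NP-D@MP, from 0, 3 and 8 reads and 13, 10 and 8 reads. Its log2 change of 1.12 was not called at 0.51 scaled to the reads, and its NP@M mean was 0.125 FPKM with N6 and 0.0528 FPKM without it. Cxcl10 and Ccl5 stayed under 1 FPKM in each NP@M library, so they passed the filter through other groups, which favours a rise. Cxcl1, which draws neutrophils, rose 8.88-fold, and Mif, an abundant cytokine, 14.6-fold, each on all 3 scales. Of 37 genes of the interferon response, 12 rose and 23 fell, while 6 rose and 31 fell scaled to the reads, and 11 rose and 20 fell after quantile normalization (median log2 change -1.09, -2.07 and -0.50). Bst2, which tethers viruses to the cell, stood at 52.4, 53.9 and 54.5 FPKM with NP@M and 1032, 877 and 869.7 FPKM with NP-D@MP, 17.3-fold higher, and Ifitm3, which blocks viral entry, rose 10.2-fold. Ifngr1, a chain of the interferon gamma receptor, stood at 5.83, 6.56 and 7.77 FPKM with NP@M and 0.4697, 0.324 and 0 FPKM with NP-D@MP, and its NP-D@MP mean was 0.265 FPKM with N10 and 0.162 FPKM without it.

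Of 15 genes that sense nucleic acid in the cytosol, 2 rose and 13 fell, while 0 rose and 15 fell scaled to the reads, and 0 rose and 13 fell after quantile normalization (median log2 change -1.12, -2.50 and -0.98). Tbk1, the kinase downstream of STING, stood at 7.93, 9.58 and 7.27 FPKM with NP@M and 0.376, 0.304 and 0.968 FPKM with NP-D@MP, with an NP-D@MP mean of 0.549 FPKM with N12 and 0.340 FPKM without it. Of 17 NF-kB genes 4 rose and 12 fell (median log2 change -0.84, -2.19 and -0.66). Nfkb1, a subunit of that factor, stood at 4.56, 4.78 and 4.83 FPKM with NP@M and 1.15, 0.984 and 1.13 FPKM with NP-D@MP, 4.34-fold lower.

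Subunits of the respiratory chain, which powers ATP synthesis in the mitochondrion, were mostly higher. Of 80 nuclear-encoded subunits of the respiratory chain, 79 rose and 0 fell, while 69 rose and 7 fell scaled to the reads, and 66 rose and 11 fell after quantile normalization, and 63 rose on all 3 scales beside 16.9% of all genes. Their median log2 change was 3.07 on the deposited scale, 1.25 scaled to the reads and 1.43 after quantile normalization. Atp5b, the catalytic subunit of ATP synthase, stood at 222, 211 and 215 FPKM with NP@M and 2619, 2583 and 2530.5 FPKM with NP-D@MP, 11.9-fold higher (log2 change 3.57, SE 0.086, adjusted p = 3.47e-11). Cox7a2, of cytochrome c oxidase, stood at 40.95, 42.9 and 39.7 FPKM with NP@M and 767, 824 and 781 FPKM with NP-D@MP, 19.2-fold higher. The 13 mitochondrially encoded mRNAs all rose on the deposited scale, 11 rose scaled to the reads, and after quantile normalization 6 rose and 4 fell. mt-Co1, a subunit of the same oxidase, stood at 5650.2, 5510.2 and 5212 FPKM with NP@M and 46265, 63848 and 55604 FPKM with NP-D@MP, and its log2 change of 3.33 became -0.54, not called, after quantile normalization. These 13 messages took 3.89 ± 0.219% of the reads with NP@M and 8.78 ± 1.42% with NP-D@MP (n = 3 each, exact two-sided permutation test, p = 0.1, the smallest that 3 against 3 libraries allow), and 3.25% with PBS. Of 23 genes of glucose use, 16 rose and 6 fell, but scaled to the reads 10 rose and 10 fell (median log2 change 1.94, 0.078 and -0.0073). Pkm, pyruvate kinase, rose 11.6-fold and Slc2a1, the glucose transporter GLUT1, fell 11.3-fold, from 18.7, 20.1 and 21.3 FPKM to 1.87, 1.92 and 1.52 FPKM, each on all 3 scales.

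Ribosomal proteins were higher on the deposited scale, and translation factors divided. Of 82 cytosolic ribosomal proteins, 80 rose and 1 fell, while 71 rose and 3 fell scaled to the reads, and 42 rose and 22 fell after quantile normalization (median log2 change 3.02, 1.13 and 0.29). Rplp0, of the ribosomal stalk, stood at 739.8, 658 and 759 FPKM with NP@M and 10872, 10509 and 11122 FPKM with NP-D@MP, 15.1-fold higher, and Rpl37a rose 17.3-fold, though 33.05% and 19.4% of their stretches occur in other transcripts. Rpl7l1, a ribosomal protein relative, was the exception that fell, from 19.6, 20.3 and 19.7 FPKM to 13.5, 13.5 and 12.3 FPKM. Ribosomal protein genes held 5.99 ± 0.304% of the reads with NP@M and 15.8 ± 0.290% with NP-D@MP (exact two-sided permutation test, p = 0.1). Translation factors split, with 27 that rose and 27 that fell of 58, and 11 and 40 scaled to the reads (median log2 change 0.13, -1.66 and -0.94). Eif5a, an elongation factor, rose 13.5-fold, and Eif3a, the scaffold of initiation factor 3, fell 4.21-fold, from 60.7, 71.8 and 62.2 FPKM to 14.7, 15.1 and 16.5 FPKM. Splicing factors (26 higher and 34 lower of 64, median log2 change -0.30, -2.01 and -0.98) and aminoacyl-tRNA synthetases (19 and 10 of 32, median log2 change 0.64, -1.12 and -0.19) were mixed, as were mitochondrial ribosomal proteins (49 and 19 of 79, median log2 change 0.87, -0.72 and 0.65). Of these, 52, 24 and 48 were lower scaled to the reads, beside 70.0% of all genes, and on that scale the medians of the synthetases and the mitochondrial ribosomal proteins lay above the -1.46 of all genes.

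Of 43 tested lysosomal and autophagy genes, 33 were higher and 8 lower, while 20 rose and 20 fell scaled to the reads (median log2 change 1.78, 0.0075 and 0.60). Ctsb, a lysosomal protease, stood at 64.9, 62.9 and 64.2 FPKM with NP@M and 698, 710.4 and 708 FPKM with NP-D@MP, 11.02-fold higher (log2 change 3.44, SE 0.076, adjusted p = 2.83e-11), and Psap, a lysosomal activator protein, rose 11.7-fold. Sqstm1, the autophagy receptor p62, fell 2.98-fold, from 153, 148 and 141 FPKM to 55.4, 50.02 and 42.8 FPKM. Of 31 genes of the NRF2 response, 23 rose and 8 fell, with 14 and 12 scaled to the reads (median log2 change 1.90, 0.034 and 0.11). Fth1, the ferritin heavy chain that stores iron, stood at 2030.3, 1984 and 2164 FPKM with NP@M and 24444, 22595 and 24832 FPKM with NP-D@MP, and its log2 change of 3.54 (1.64 scaled to the reads) was not called at 0.048 after quantile normalization. Txnrd1, a thioredoxin reductase, fell 2.77-fold, beside the fall of Nfe2l2 itself. Hspa8, the constitutive HSP70, stood at 304, 316 and 349.8 FPKM with NP@M and 40.2, 36.02 and 36.8 FPKM with NP-D@MP, 8.58-fold lower, in a group of 24 cytosolic heat shock proteins of which 12 rose and 11 fell (median log2 change 0.30, -1.21 and -0.79); 38.6% of its stretches occur in other transcripts. Of 33 proteasome subunits 25 were higher and 5 lower, or 9 and 19 scaled to the reads, where 70.0% of all genes were lower (median log2 change 1.42, -0.45 and -0.073). Insig1, a brake on cholesterol synthesis, fell 7.66-fold among 23 cholesterol genes of which 11 rose and 11 fell, or 3 and 17 scaled to the reads (median log2 change 0.02, -1.67 and -0.47).

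Of 45 thymosins, actins and actin-binding proteins, 38 rose and 3 fell, or 23 and 15 scaled to the reads (median log2 change 2.08, 0.34 and 0.11). Anxa2, annexin A2, which joins membranes to actin, stood at 169, 157 and 157 FPKM with NP@M and 2556, 2527 and 2579 FPKM with NP-D@MP, 15.9-fold higher, and Rdx, radixin, which does so too, fell 3.698-fold. Actb, beta actin, a common reference gene, stood at 423, 428 and 439.7 FPKM with NP@M and 894, 819 and 882 FPKM with NP-D@MP, and its log2 change of 1.005 turned to -0.89 scaled to the reads and -2.04 after quantile normalization, both called falls. Vim, vimentin, an intermediate filament, had log2 changes of 1.73 on the deposited scale, -0.16 scaled to the reads, not called, and -1.48 after quantile normalization, a called fall. Gapdh, the other common reference gene, was not called and stood at 55.6, 18.3 and 20.996 FPKM with NP@M and 10.4, 347 and 483 FPKM with NP-D@MP (log2 change 2.11, SE 1.69, adjusted p = 0.247). Its groups overlapped and 2 libraries set its means: NP@M stood at 31.6 FPKM with N4 and 19.6 FPKM without it, and NP-D@MP at 279.9 FPKM with N12 and 178.5 FPKM without it. Without N10 its log2 change was 3.83 (adjusted p = 0.0391). Timp1, an inhibitor of matrix proteases, rose 7.34-fold, among 24 matrix and mesenchymal genes of which 13 rose and 9 fell, or 3 and 15 scaled to the reads (median log2 change 0.44, -1.07 and 0.084). Of 41 genes of DNA repair 13 rose and 25 fell, or 6 and 33 scaled to the reads (median log2 change -0.59, -1.55 and -0.16).

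Many short noncoding RNAs were higher. Snora17, a guide RNA for ribosomal RNA, stood at 1.23, 4.09 and 2.44 FPKM with NP@M and 1915, 1688 and 1719 FPKM with NP-D@MP, from 5, 16 and 10 reads and 1890, 1690 and 1618 reads, 685-fold higher. Rnu1a1 and Rnu12, RNAs of the spliceosome, had 2, 0 and 12 and 0, 0 and 12 reads with NP@M and 614, 442 and 484 and 349, 347 and 315 reads with NP-D@MP. Their NP@M means rested on N6, at 0.918 and 0.853 FPKM with it and 0.199 and 0 FPKM without it, and 100% and 53.9% of their stretches occur elsewhere. Snord118, which processes ribosomal RNA, had no read with NP@M and 109, 98 and 98 reads with NP-D@MP, at least 139.5-fold higher against a floor of 3 reads per library. The largest falls among short genes had few reads: Mir5125, a microRNA gene, had 68, 83 and 154 and 1, 4 and 0 reads, Snord72 35, 58 and 59 and 0, 0 and 4, Snora41 17, 18 and 29 and 0, 0 and 0, and AF357399 20, 34 and 47 and 0, 1 and 2. Snora41 was at least 1.72-fold lower against the floor. Single libraries decided the NP-D@MP means of Mir5125 (2.79 FPKM with N11, 0.846 FPKM without it), Snord72 (2.31 FPKM with N12, 0 FPKM without it) and AF357399 (1.099 FPKM with N12, 0.527 FPKM without it). Of 29 small nuclear RNAs tested, 25 rose and 0 fell on each of the 3 scales. Of 26 small nucleolar RNAs 14 rose and 9 fell, while 8 rose and 9 fell scaled to the reads, and 14 rose and 7 fell after quantile normalization. Short RNAs near 0 with NP@M, such as Snord118, Rnu1a1 and Rnu12, passed the filter through other groups, which favours a rise. How many of the RNAs counted here did so was not determined, so these counts may lean to rises.

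Replication-dependent histones, whose messages lack the usual poly(A) tail, rose in 37 of 38 tested (49 listed) with 0 falls, or 31 rises and 2 falls scaled to the reads and 37 and 1 after quantile normalization (median log2 change 1.84, 1.08 and 1.98). The 3 histones named below stayed under 1 FPKM in each NP@M library. They passed the filter through other groups, which favours a rise. How many of the other tested histones did so was not determined, and listed histones that missed the filter are not in the counts. The counts and medians of this group may therefore lean to rises. Hist1h1e, a linker histone, stood at 0.101, 0.332 and 0.467 FPKM with NP@M and 17.3, 11.6 and 10.9 FPKM with NP-D@MP, from 6, 19 and 28 and 249, 170 and 150 reads. Hist1h2ae stood at 0.417, 0.04795 and 0 FPKM with NP@M and 17.1, 10.9 and 15.3 FPKM with NP-D@MP, with an NP@M mean of 0.155 FPKM with N4 and 0.0240 FPKM without it. Hist1h2bb had no read with NP@M and 60, 65 and 34 reads with NP-D@MP. Between 32% and 43.2% of the stretches of these 3 genes occur in other transcripts. Together the 49 listed histones held 0.00922% of the reads with NP@M and 0.0130% with NP-D@MP, a smaller difference than in these 3 genes. Zinc finger genes of the Zfp family, many of them repressors of transcription, went the other way: of 190 tested, 15 rose and 160 fell, while 2 rose and 185 fell scaled to the reads, and 20 rose and 116 fell after quantile normalization, with a median log2 change of -0.96 on the deposited scale, -1.89 scaled to the reads and -0.53 after quantile normalization. Processed pseudogenes, intronless copies of expressed genes, rose in 547 and fell in 56 of 660, or 359 and 107 scaled to the reads, and their share of the reads was 1.70 ± 0.0925% with NP@M and 3.92 ± 0.0828% with NP-D@MP (n = 3 each). Gm26917, a long noncoding RNA picked out for its values, had the largest log2 change of all tested genes, 9.83, and held 0.00742% of the reads with NP@M and 1.97% with NP-D@MP.

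Gene length moved with the change across genes, which are not independent replicates. With the tested genes in 10 equal bins by deposited length, the median log2 change went from 1.91 in the shortest bin (56 to 912 bases) to -0.68 in the longest (9306 to 41155 bases), and 78.7% of the shortest bin was called higher. Scaled to the reads these medians were 0.74 and -1.80, and after quantile normalization 1.59 and -0.28. On the last scale bins 3 to 10 lay between -0.16 and -0.40, so the difference lay in the shortest genes. Among protein-coding genes alone the shortest bin stood at 1.64 on the deposited scale, 0.18 scaled to the reads and 0.78 after quantile normalization. By GC content the median rose from -0.79 in the lowest bin to 0.85 in the highest. Spearman's rank correlation with the log2 change across 10101 genes was -0.337 for length and -0.296 for the span on the genome, and across 10090 genes it was 0.237 for GC content. The part of length and GC content in the results on gene groups was not tested.

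**Figure D5:**
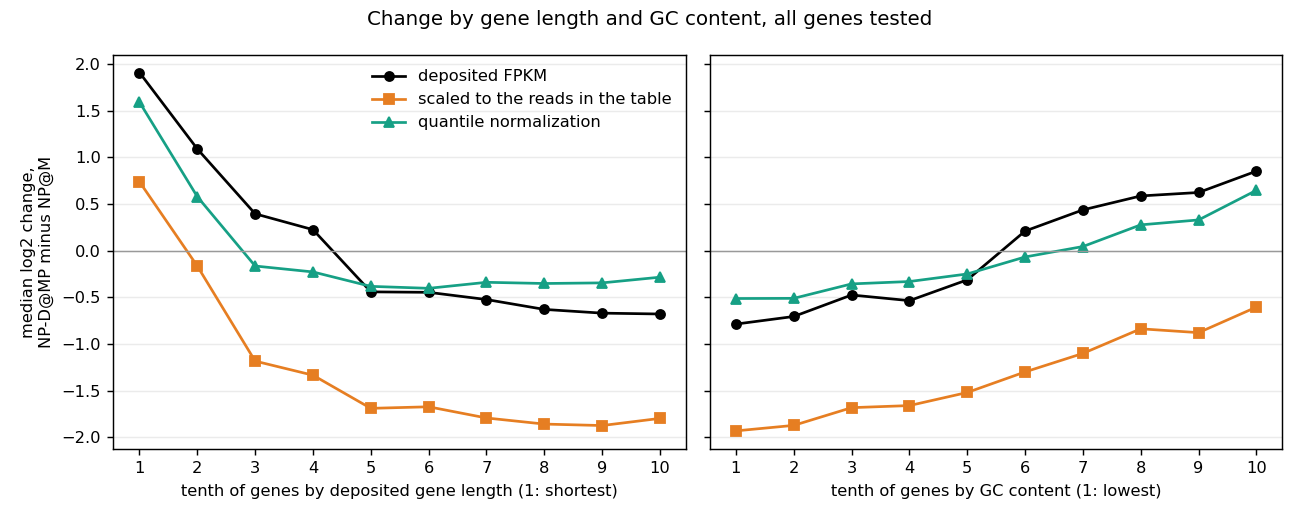
Median log2 change (NP-D@MP minus NP@M) in 10 equal bins of the tested genes by deposited length and by GC content, on 3 scales. On each scale the shortest genes lie highest, and the bin with the highest GC content lies above the bin with the lowest.

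Markers of other cell types were mostly missing from the table. None of the 9 T and NK cell, 6 B cell, 6 hepatocyte or 5 red cell markers was listed, and of 13 retina markers, looked up because the extraction text speaks of retinas, 2 were listed and only Pax6, an eye and brain factor, was tested. It stood at 1.16, 1.63 and 1.12 FPKM with NP@M and 0.217, 0.0902 and 0.156 FPKM with NP-D@MP. Of 11 markers of colon epithelium, 2 were listed and tested, and they differed. Krt20, a keratin of mature gut cells, rose from 7.83, 9.28 and 8.903 FPKM to 75.6, 88.2 and 77.4 FPKM and on all 3 scales. The other marker had a log2 change of -0.63 on the deposited scale, not called. It was called lower scaled to the reads and was not called after quantile normalization. Epcam and Krt8, which define epithelium, were not listed. Fibroblast markers fell in 4 of 4 tested on each scale, with Col1a1, a collagen chain, at 10.8, 10.97 and 11.1 FPKM with NP@M and 1.73, 1.55 and 0.919 FPKM with NP-D@MP and Col1a2, its partner, at 53.4, 53.4 and 56.1 FPKM with NP@M and 12.8, 10.2 and 11.01 FPKM with NP-D@MP. Of 3 myeloid markers tested, Cd68 and Lyz2 were higher and Cd14 was lower on the deposited scale. Cd68, a lysosomal protein, stood at 2.801, 2.18 and 2.15 FPKM with NP@M and 11.6, 13.95 and 19.1 FPKM with NP-D@MP, Lyz2, lysozyme, at 0.446, 1.0004 and 0.465 FPKM with NP@M and 2.13, 2.204 and 2.24 FPKM with NP-D@MP and Cd14, a receptor for bacterial lipid, at 6.801, 7.15 and 7.94 FPKM with NP@M and 4.08, 2.18 and 4.73 FPKM with NP-D@MP. Without N11 the log2 change of Cd14 was -0.62 (adjusted p = 0.0740), no longer called. Lyz2 was not called scaled to the reads (-0.029). It did not reach 1 FPKM in N4 and N6, so it passed the filter with the help of other groups, which favours a rise. The leukocyte marker Ptprc was listed with 0 reads in each NP@M library and with 5, 0 and 1 reads in the NP-D@MP libraries. The part of other cells in the results was not tested.

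Against NP-D@M, which differs from NP-D@MP only in P by its name, the number of genes that differed rested on N9. With all libraries 5 of 10101 genes (0.0495%) were called and 1713 (17.0%) had an unadjusted p under 0.05, and no member of the gene lists was among the calls, which hold Mcat, Borcs5, 2 processed pseudogenes and 1 small nuclear RNA. Mcat and Borcs5 were named after their values were seen. Mcat, which charges mitochondrial fatty acid synthesis, stood at 0, 0 and 0.198 FPKM with NP-D@M and 1.19, 0.911 and 1.08 FPKM with NP-D@MP, and at 8.27, 6.39 and 7.97 FPKM with NP@M. Borcs5, which moves lysosomes, stood at 0, 0 and 0.0972 FPKM with NP-D@M, 0.8004, 0.737 and 0.615 FPKM with NP-D@MP and 1.79, 1.93 and 2.54 FPKM with NP@M. Both were nearer to NP@M with NP-D@MP than with NP-D@M, from at most 22 reads in a library with either agent. Without N9, 1259 genes (12.5%) were called, 969 higher (9.59%) and 290 lower (2.87%) with NP-D@MP. The 5 were among them, and the median absolute log2 change was 0.616. Since N9 was the NP-D@M library most like the NP-D@MP libraries, leaving it out favours more calls. The main comparison changed little without N9, with 9268 genes called, 4449 higher and 4819 lower. With NP-D@M, all libraries included, Trib3 stood at a mean of 1.701 FPKM, Cdk1 at 1.59 FPKM, Cdk4 at 580.1 FPKM, Calr at 1299.8 FPKM and Hspa5 at 39.8 FPKM, none called different from NP-D@MP (adjusted p = 0.158, 0.462, 0.404, 0.578 and 0.444). Without N9 the NP-D@M means were 1.43, 1.71, 555, 1324 and 31.6 FPKM, and Trib3 was called lower with NP-D@MP (log2 change -0.51, adjusted p = 0.044) while the other 4 were not (adjusted p = 0.279, 0.179, 0.652 and 0.716). Mcat and Borcs5 had no read in N7 and N8 and were called without N9 as well (adjusted p = 0.00219 and 0.0046). N7 and N8 had reads for fewer genes than any other library, 10385 and 10410, which limits what these zeros show. The carrier alone gave the background: NP@M against PBS had 1 called gene (0.00990%) and 1092 (10.8%) with an unadjusted p under 0.05. With PBS, Trib3, Cdk1, Cdk4, Calr and Hspa5 stood at 68.97, 17.6, 94.2, 123.04 and 194 FPKM.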

How the data were processed

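Groups and library numbers were taken from the sample titles. Per the labels' protocols, libraries were made with an Illumina TruSeq kit from total RNA. The authors deposited 1 table of FPKM values with gene identifiers, coordinates and lengths; Bowtie 0.12.2 and the build mm8 are named per the submitters' processing notes, while the coordinates were those of GRCm38 (12580 of 12584 identifiers were found in GENCODE M21, 12113 with identical coordinates). The gene counter, its strand setting and the source of the library sizes are not given in the sources used here, so reads of overlapping and antisense genes cannot be told apart.

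FPKM times gene length was a whole multiple of 1 step per library for 100% of values (relative tolerance 1e-06), which gave whole reads. Replicates differed by more than counting noise (chi-square per degree of freedom 6.93 to 57.7) and all were kept as separate samples. Genes with 1 FPKM or more in 3 or more libraries, 10101 in all, were fitted with limma 3.58.1 (R 4.3.3) on log2(FPKM + 1), with the 12 libraries in 1 fit and p-values adjusted by Benjamini-Hochberg (calls under 0.05). A gene near 0 in 1 group could pass this filter through other groups, which favours 1 direction. Of the tested genes, 75 had no read with NP@M and 60 had none with NP-D@MP. On simulated data for NP-D@MP against NP@M (9489 genes tested), 58.2% of genes changed 1.5-fold, 85.1% changed 2-fold and 97.0% changed 4-fold were called, and 7.51% of calls were false. The simulation drew all groups from the NP@M means with a fixed spread and changed few genes. In the data 90.8% of genes were called, so these rates check the code and do not describe this comparison. Figures were drawn with matplotlib and tables made with pandas and scipy in Python.

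Lists, tests and the rule for naming genes were chosen with earlier results of these data known. By the rule the text draws on the 10 largest rises and falls among called genes of 500 bases or more whose groups lie apart and whose higher group averages 5 FPKM or more, with a symbol that is no predicted locus and a call scaled to the reads; the 4 largest of each among shorter genes; called members of each list with the smallest p; and 25 genes fixed by name, of which 1 is not reported here. Other genes are said to be chosen after their values were seen. Alternatives were other scalings, filters, pseudocount, thresholds, a fit on 6 libraries, limma voom on the recovered reads, limma with trend and robust settings, and leaving out each library; leaving out N9 from the main comparison was added after seeing the data. Floors and reads cover counting error only. Shares of 50-base stretches found in other transcripts are given beside some genes only. Among genes without this note they were 51.1% for mt-Co1, 34.9% for Snora41, 34.1% for Mif and 25.8% for Pkm. They were 24.7% for Gapdh, 23.4% for Ccnb1, 21.7% for Ppp1r14b, 21.3% for Snrpf and 20.4% for Hmgb1. Reads of these genes could be shared.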

Additional observations from a re-analysis of the deposited data

Results flagged for a closer look

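The 5 genes below are those whose change against NP@M differed between NP-D@MP and NP-D@M by the direct test of that difference (limma, adjusted over all tested genes). The pseudogene Gm11461 was higher with NP-D@MP by a log2 change of 1.56 (adjusted p = 0.000165), from 7, 6 and 4 reads, and had no read in the NP-D@M and NP@M libraries. Gm4322, another pseudogene, was higher by 1.37 (adjusted p = 0.00435), from 4, 3 and 5 reads, with no read with NP-D@M. Both pseudogenes passed the filter without any NP-D@M library, which favours a rise over NP-D@M. Groups without a read add no spread to the fit on 12 libraries, so the p-values of these 2 genes can come out too small. Gm22818, a small nuclear RNA, had a log2 change of -0.72 (adjusted p = 0.00435), from 132, 132 and 124 reads with NP-D@MP against 225, 221 and 240 with NP-D@M. Mcat was higher by 0.96 (adjusted p = 0.0189) and Borcs5 by 0.73 (adjusted p = 0.0463), each in 3 of 3 libraries. None of them was called by limma voom on the recovered reads.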

How the results depend on the processing

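For NP-D@MP against NP@M, 9169 genes were called. A mean of at least 5 FPKM left 4587 calls (1333 of them lower; fewer genes were tested), and a log2 change of at least 1 left 6077 (2862 lower). The number of higher genes, 4393, fell to 1871 scaled to the reads and to 1824 with voom on those reads; no other setting moved these counts by over 1.5 times. For NP-D@MP against NP-D@M the 5 calls became 2 scaled to the reads, 26 with a pseudocount of 0.1, 21 with no filter, 1 with a mean of at least 5 FPKM, 2 with a log2 change of at least 1, 3 at an adjusted p under 0.01, and 0 in the fit on only the 6 libraries and with voom on either library size (1713 had an unadjusted p under 0.05 in the limma fit on 12 libraries); leaving out 1 library gave 4 (without N8) to 1259 (without N9), and 14 without N7. For NP@M against PBS the single call became 7 after quantile normalization, 2 with a pseudocount of 0.1, 4 with no filter, 2 in the fit on only the 6 libraries, 70 with voom on the reads, and 0 with a mean of at least 5 FPKM and with voom on the authors' library sizes (1092 had an unadjusted p under 0.05); leaving out 1 library gave 1 to 2.

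Directions on the deposited scale turned for 15 named genes, and the cause was not tested. Scaled to the reads and with voom on the reads, the log2 changes were -0.0043 and -0.0047 for Ccnb2, -0.32 and -0.32 for Ccnd1, -0.11 and -0.11 for Foxm1, -0.38 and -0.44 for Bcl2l2, -0.90 and -0.91 for Asns, -0.089 and -0.094 for Nupr1, -0.016 and -0.016 for Canx, -1.22 and -1.23 for Hsp90b1, -0.16 and -0.17 for Vim, -0.89 and -0.89 for Actb and -0.029 and -0.0068 for Lyz2. After quantile normalization they were -0.036 for Ccnb2, -0.92 for Ccnd1, -0.096 for Foxm1, -1.79 for Asns, -0.49 for P4hb, -0.42 for Canx, -1.91 for Hsp90b1, -0.34 for B2m, 0.058 for Cd274, -0.54 for mt-Co1, -1.48 for Vim and -2.04 for Actb. Depth limits the genes with few reads, such as Cdc6 and Ccl5, with at most 7 and 13 reads in an NP-D@MP library. No paired analysis was possible because library numbers run in a single series and no number is shared between groups.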
